A study of Mus musculus with 6 samples.

Results

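The DNA replication and mitosis genes are a list of 43 genes that copy the genome in S phase, drive the cell into mitosis or divide the chromosomes. They were read in mouse blastocysts, the hollow embryo stage that precedes implantation, on 6 Illumina bead arrays. Probes were assigned to members by gene symbol in the platform's annotation and not by their values. The list itself was drawn up with earlier results of these data known. Of the 43 genes, 41 had at least 1 probe under their symbol, 87 probes in all, among 19057 genes with a probe of a single symbol. The cyclin B1 gene Ccnb1 and the proliferation marker Mki67 had none and were not analysed here.

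The arrays formed 3 groups of 2. The first came from the uterus of mice that had received ICI at 0.5 µg per mouse, the second from oviducts that had been ligated, and the third from the uterus of normal pregnant mice. All donors were CD-1 females given 5 IU PMSG and, 44 h later, 5 IU hCG before mating, so hormone-induced ovulation was shared by every group. Each array held RNA from a pool of 100 to 120 embryos, so differences between embryos within a pool were not measured. The labels place a time of 70 h after hCG beside the uterine groups without saying whether it marks the injection or the flushing, and they give day 4 after mating for both the ligation and the collection from the oviduct. The study's design text calls the embryos of all 3 groups day 3.5. They do not say that the replicate pools came from separate mice, so every p-value here speaks of the scatter between these arrays, part of which may be technical.

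Replication starts when Cdc6 and Cdt1 load the Mcm2 to Mcm7 helicase onto origins, and Cdc45 and the GINS complex then switch that helicase on. Cyclin E with Cdk2 opens S phase, and Cdk1, released by Cdc25 phosphatases and held back by Wee1 and Chek1, opens mitosis. In mitosis Plk1 and the Aurora kinases build the spindle, Bub1b, Mad2l1 and Ttk hold the cell until chromosomes are attached, and Cdc20 and Ube2c turn on the ubiquitin ligase that starts anaphase. Blastocyst cells divide quickly, and outer trophectoderm cells later copy their genome without dividing. Genes of S phase are commonly driven by E2F factors, and genes of mitosis by the MuvB complex at a short element called CHR together with NF-Y at CCAAT boxes.

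The promoters of 4 genes are shown because they carry these elements in the arrangements that set the gene groups apart. The 250 bases before the annotated start come from RefSeq on GRCm38.p6, each written on its gene's strand. Mcm5 lies on the plus strand at chr8:75109259-75109508, Mcm6 on the minus strand at chr1:128359706-128359955, Cdk1 on the minus strand at chr10:69352913-69353162 and Cdc20 on the minus strand at chr4:118437344-118437593. Capitals mark every match on either strand to a motif. The E2F motif was TTCGCGC, its variant TTGGCGC, its variant TTCCCGC or its variant TTGCCGC. The CHR motif was TTTGAA or its variant TTCGAA. The NF-Y box was CCAAT, which on the other strand is read as ATTGG. In Mcm5 and Mcm6 the long capital runs are E2F matches that overlap.
Mcm5: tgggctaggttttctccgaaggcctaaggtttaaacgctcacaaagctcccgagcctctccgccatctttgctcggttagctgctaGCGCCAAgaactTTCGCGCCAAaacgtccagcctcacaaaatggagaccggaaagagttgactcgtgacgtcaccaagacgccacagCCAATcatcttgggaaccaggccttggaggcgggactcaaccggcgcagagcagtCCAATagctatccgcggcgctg
Mcm6: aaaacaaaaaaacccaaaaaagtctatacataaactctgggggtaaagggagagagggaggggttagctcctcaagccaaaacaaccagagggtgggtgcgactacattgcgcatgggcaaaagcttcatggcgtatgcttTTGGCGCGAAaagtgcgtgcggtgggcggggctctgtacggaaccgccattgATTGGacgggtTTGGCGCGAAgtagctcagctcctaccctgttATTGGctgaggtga
Cdk1: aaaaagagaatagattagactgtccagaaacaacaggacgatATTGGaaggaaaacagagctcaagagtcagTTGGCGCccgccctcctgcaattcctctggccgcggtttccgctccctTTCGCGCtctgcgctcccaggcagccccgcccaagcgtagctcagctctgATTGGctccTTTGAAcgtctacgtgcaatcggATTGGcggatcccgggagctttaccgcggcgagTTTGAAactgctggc
Cdc20: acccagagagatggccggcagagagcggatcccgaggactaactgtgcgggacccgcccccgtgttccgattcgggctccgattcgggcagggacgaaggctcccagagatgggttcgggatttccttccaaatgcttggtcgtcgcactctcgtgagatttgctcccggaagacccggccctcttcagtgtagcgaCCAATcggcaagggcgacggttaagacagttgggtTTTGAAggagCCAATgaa
The helicase genes Mcm5 and Mcm6 held E2F motifs and CCAAT boxes with no CHR match in these bases. Cdk1, which acts at the entry to mitosis, held E2F motifs, CHR motifs and CCAAT boxes. Cdc20, the activator of anaphase, held a CHR motif between a pair of CCAAT boxes and no E2F match.

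The same contrast ran through the list. RefSeq promoters of 300 bases, reaching 50 bases past the start, were found for 34 members, with 35 promoters because Mcm7 had 2. An E2F motif lay in 9 of 13 promoters of replication genes (69.2%), in 1 of 14 promoters of mitosis genes (7.14%) and in 9.57% of all 32851 promoters in the table. The CHR motif lay in 3 of 13 promoters of replication genes (23.1%), in 11 of 14 of mitosis genes (78.6%) and in 19.2% of all promoters. The 11 were those of Aurka, Bub1, Bub1b, Cdc20, Cenpa, Kif11, Mki67, Plk1, Top2a, Ttk and Ube2c, and each of the 11 held a CCAAT box as well. A CHR motif together with CCAAT lay in 7.52% of all promoters. Among promoters of genes with a kept probe, which are richer in GC, E2F motifs lay in 16.4%, CHR motifs in 13.7%, CCAAT in 38.3% and a CHR motif together with CCAAT in 5.7%. CCAAT alone did not divide the groups, with 76.9% of replication promoters, 85.7% of mitosis promoters and 37.4% of all promoters. Among cyclin, Cdk, phosphatase and checkpoint kinase genes, E2F motifs lay in 5 of 8 promoters and CHR motifs in 3 of 8. A match describes letters in this window and not a bound factor, and the median GC content was 57.7% in the members, 60.7% in promoters of genes with a kept probe and 52.7% in all promoters.

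**Figure D1:**
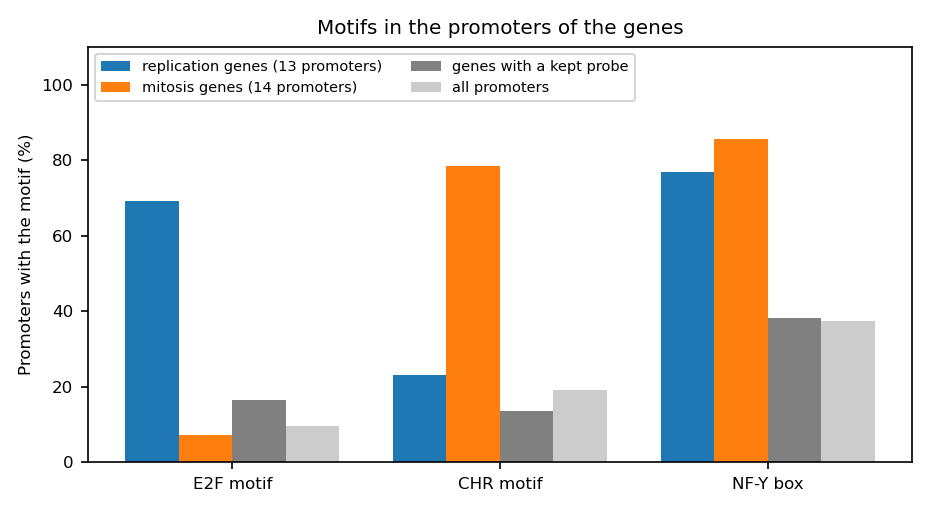
Bars give the percentage of promoters of 300 bases that hold an E2F motif, a CHR motif or a CCAAT box (labelled NF-Y box), for replication genes, mitosis genes, genes with a detected probe and all promoters in the RefSeq table. E2F motifs were found in 69.2% of replication promoters and 7.14% of mitosis promoters, and CHR motifs in 23.1% and 78.6%.

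A probe was kept where both arrays of 1 group or more gave it a detection p-value under 0.05, which left 66 of the 87 member probes and 37 of the 43 genes. Of these 37 genes, 34 were detected on all 6 arrays. Bub1, a spindle checkpoint kinase, Ccnb2, the cyclin B2 gene, and Cenpe, a kinetochore motor, were not above background on any array. Ccna2, the cyclin A2 gene, was detected on 1 ICI array and 1 oviduct array only. Levels below are log2 signal after background correction and quantile normalization, each gene at the probe with the highest mean, and levels of different genes cannot be compared because each probe has its own brightness. Replication, Cdk and mitosis genes were thus present in all 3 groups of embryos, while 4 members gave no usable level.

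Facts of the whole series bear on these values. Between 16525 and 18182 of 45281 probes were detected per array, and 17677 probes of 9857 genes with a single symbol or of no named gene entered the fit. The trophectoderm gene Cdx2 and the inner cell mass genes Pou5f1 and Nanog were detected on every array, as the blastocyst label requires. All 16 trophectoderm markers were kept, with summed signals of 73203.5 and 77329 on ICI arrays, 65262 and 50359 on oviduct arrays and 79138.7 and 76365 on uterus arrays. Of 21 oocyte and early cleavage markers on the array 10 were kept, with summed signals of 16798.1 and 16678.7 on ICI arrays, 15576.8 and 15631.5 on oviduct arrays and 15924.7 and 24346.5 on uterus arrays. Uterus replicate 2 thus stood apart in oocyte genes such as Gdf9, at 11.12 against 7.07 in uterus replicate 1. Oviduct replicate 2 stood apart in some markers of other cells and not in others of the same lists. The oviduct glycoprotein Ovgp1 was at 8.35 there and 6.52 on oviduct replicate 1, the stromal gene Dcn at 8.32 and 6.14 and the myeloid gene Lyz2 at 7.75 and 5.87. The stromal genes Acta2, Thy1 and Pdgfrb were not highest there, and the globin gene Hba-a1, at 10.73, was also high on uterus replicate 1, at 10.18. The part of these cell types in the results was not tested, and in pooled embryos fewer cells of a type and less RNA per cell cannot be told apart.

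No member passed the test in any comparison. The fit was limma's over the 3 groups with Benjamini-Hochberg adjustment over all 17677 probes and a threshold of 0.05. The members had 0 calls of 37 for ICI against uterus, where 0% of all genes were called, 0 for oviduct against uterus (0.0812%) and 0 for ICI against oviduct (0.314%). Over probes, 0.0509% were called in oviduct against uterus and 0.339% in ICI against oviduct. Their lowest limma adjusted p-values were 0.535, 0.238 and 0.212. At an unadjusted p under 0.05 the members had 1 for ICI against uterus (Kif11), 2 for oviduct against uterus (Cdc6 and Pcna) and 1 for ICI against oviduct (Tyms), against 6.67%, 19.5% and 20% of all genes. With only the 2 groups of a comparison in the fit, these unadjusted counts were 8, 0 and 0. With array weights they were 9, 0 and 2. The share over all genes in those fits was not counted. A moderated F-test over the 3 groups also called 0 members, with a lowest adjusted p of 0.288 at the brightest probes. Over all 17677 probes it called 4.

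By its median difference the list lay near the middle of all genes, with a lean upward in ICI minus uterus. There 26 of the 37 members were above the median of all genes. That count was 21 with arrays scaled on their medians and 20 with the authors' processed values. In oviduct minus uterus 20 members were above it, and in ICI minus oviduct 23. For ICI minus uterus the median log2 difference of the 37 members was 0.0026, with 19 above 0, beside a median of -0.0606 over all genes, of which 40.5% were above 0. For oviduct minus uterus it was -0.0034, with 18 above 0, beside -0.015 and 48.6%. For ICI minus oviduct it was 0.0365, with 21 above 0, beside -0.0423 and 46%. Each pair of comparisons shares the arrays of a group, so these values are not independent of each other. The interval of each difference shows what 2 arrays a group can resolve. The 95% interval, not adjusted for the number of genes, lay wholly within 2-fold in either direction for 30 of 37 members in ICI against uterus, where 80.2% of all genes did, for 28 in oviduct against uterus (68.8%) and for 29 in ICI against oviduct (68.2%). The median spread of a member between replicates was 0.07 (SD, log2, n = 2) in ICI, 0.26 in oviduct and 0.08 in uterus, so the oviduct pair set most of the error.

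**Figure D2:**
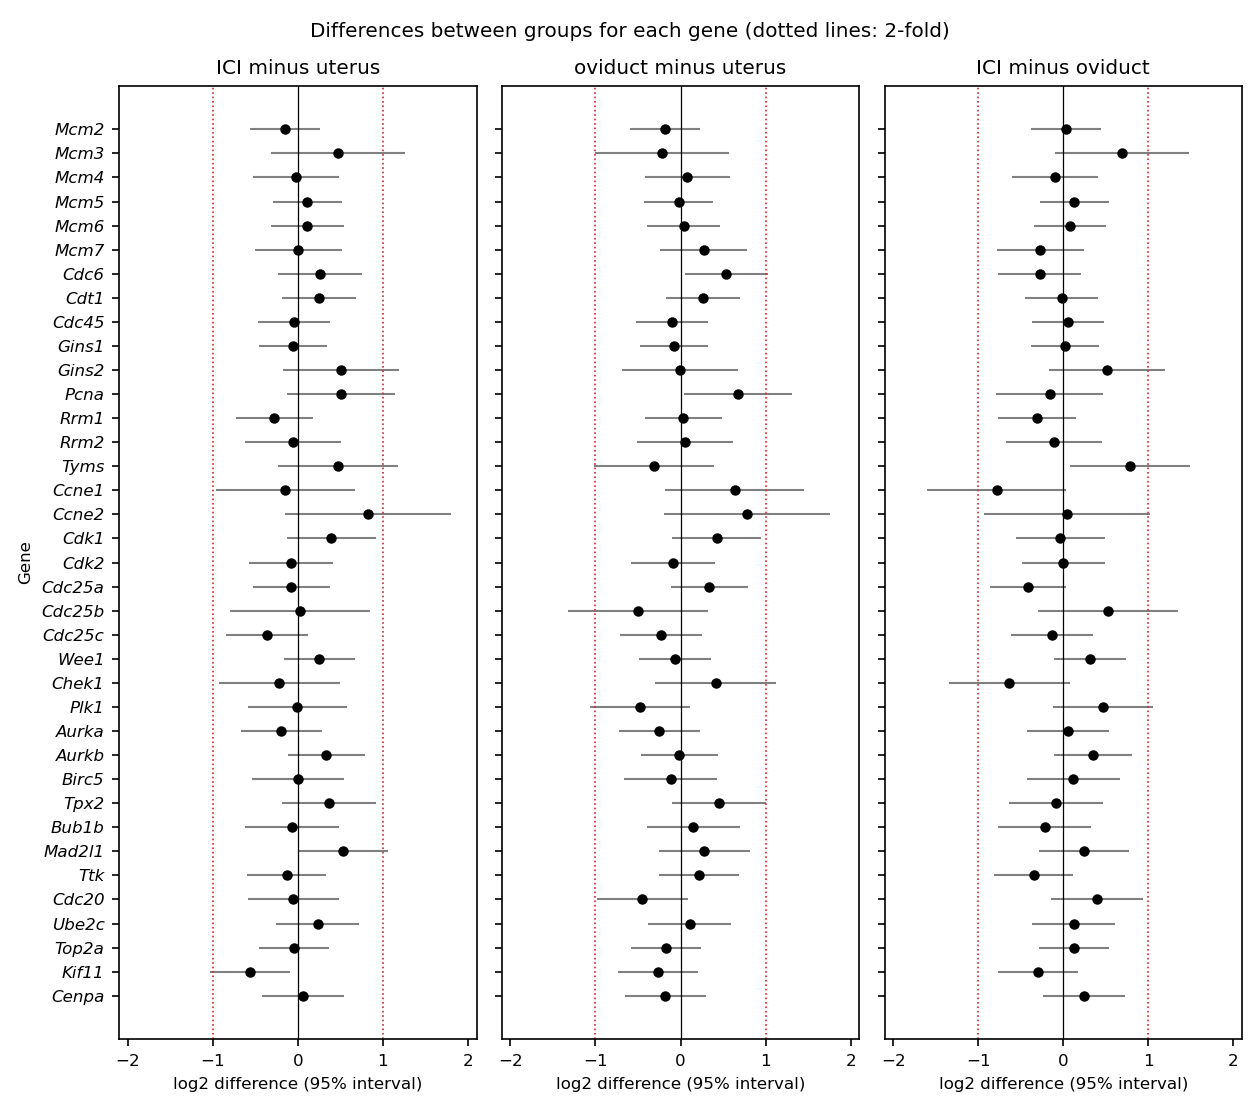
Points give the log2 difference of each of the 37 detected genes and lines its 95% interval from limma, for ICI minus uterus, oviduct minus uterus and ICI minus oviduct, with dotted lines at 2-fold. In ICI minus uterus only Kif11 has an interval that leaves out 0, and in ICI minus oviduct only Tyms.

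Most helicase subunits had close levels in the 3 groups. Mcm5, a helicase subunit, read 12.52 and 12.52 on ICI arrays, 12.32 and 12.46 on oviduct arrays and 12.41 and 12.41 on uterus arrays. Its log2 difference was 0.11 (95% interval -0.30 to 0.51) for ICI minus uterus and -0.02 (-0.43 to 0.38) for oviduct minus uterus. Thus a 2-fold difference in Mcm5 lay outside both intervals. Mcm6 read 10.44 and 10.68 on ICI arrays, 10.49 and 10.49 on oviduct arrays and 10.42 and 10.49 on uterus arrays. Mcm4, the brightest helicase probe, read 12.33 and 12.50 on ICI arrays, 12.74 and 12.30 on oviduct arrays and 12.39 and 12.48 on uterus arrays. At these probes the 3 groups overlapped for both genes. A second Mcm6 probe read 10.27 and 10.54 on ICI arrays, 10.99 and 10.71 on oviduct arrays and 9.92 and 10.44 on uterus arrays, and another read 9.85 and 9.94 on ICI arrays, 11.24 and 10.27 on oviduct arrays and 10.16 and 10.01 on uterus arrays. On both of these probes the oviduct arrays lay above the other 4, with 0.67 (0.09 to 1.24) and 0.66 (-0.09 to 1.41) for oviduct minus uterus and -0.45 and -0.86 for ICI minus oviduct. All 4 kept Mcm6 probes were above 0 in oviduct minus uterus, and none passed, with limma adjusted p-values of 0.216 to 0.934. The fourth Mcm6 probe was kept only through the ICI pair. It was detected on 1 oviduct array and was not above background on either uterus array. Mcm2 read 11.09 and 11.03 on ICI arrays, 11.10 and 10.94 on oviduct arrays and 11.23 and 11.18 on uterus arrays. Mcm7 read 9.26 and 9.36 on ICI arrays, 9.77 and 9.40 on oviduct arrays and 9.14 and 9.47 on uterus arrays. Mcm2 had both uterus arrays highest, with differences of -0.15 (-0.56 to 0.26) for ICI minus uterus and -0.18 (-0.59 to 0.23) for oviduct minus uterus, and Mcm7 overlapped between ICI and uterus and between oviduct and uterus. A second Mcm7 probe read 8.69 and 9.19 on ICI arrays, 7.72 and 8.84 on oviduct arrays and 8.71 and 8.53 on uterus arrays. It had -0.34 for oviduct minus uterus and 0.66 for ICI minus oviduct, where the brightest Mcm7 probe had 0.27 and -0.27. Among the brightest probes of these genes Mcm3, the dimmest, was the exception in spread. It read 9.24 and 9.30 on ICI arrays, 8.06 and 9.10 on oviduct arrays and 8.78 and 8.81 on uterus arrays. Both ICI arrays lay above all others, and oviduct replicate 1 lay far below its partner. The difference was 0.47 ± 0.33 (SE) for ICI minus uterus and 0.69 ± 0.33 for ICI minus oviduct, with limma adjusted p-values of 0.667 and 0.283.

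The loading factors Cdc6 and Cdt1 had the lowest values in the normal uterus. Cdc6 read 9.52 and 9.66 on ICI arrays, 9.82 and 9.92 on oviduct arrays and 9.12 and 9.54 on uterus arrays. At this brightest probe both oviduct arrays lay above both uterus arrays and both ICI arrays, and ICI and uterus overlapped. For oviduct minus uterus its difference was 0.54 (0.05 to 1.03), with limma's adjusted p at 0.238. A dim second Cdc6 probe read 5.23 and 5.62 on ICI arrays, 5.10 and 5.21 on oviduct arrays and 4.72 and 5.26 on uterus arrays. There both ICI arrays lay above both oviduct arrays, by 0.27, and the oviduct and uterus arrays overlapped. Cdt1 read 11.96 and 12.06 on ICI arrays, 11.92 and 12.14 on oviduct arrays and 11.70 and 11.83 on uterus arrays. Both uterus arrays were the lowest, and the differences of 0.25 (-0.19 to 0.68) for ICI minus uterus and 0.27 (-0.17 to 0.70) for oviduct minus uterus had intervals that include 0.

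The helicase activators were level except Gins2. Cdc45 read 9.54 and 9.50 on ICI arrays, 9.57 and 9.36 on oviduct arrays and 9.61 and 9.52 on uterus arrays. Gins1 read 10.19 and 10.24 on ICI arrays, 10.21 and 10.18 on oviduct arrays and 10.32 and 10.22 on uterus arrays. In both genes every difference between group means was small, the widest being -0.10 (-0.53 to 0.32) for Cdc45 in oviduct minus uterus. Gins2 read 9.17 and 9.20 on ICI arrays, 8.26 and 9.10 on oviduct arrays and 8.58 and 8.79 on uterus arrays. Both ICI arrays lay above the other 4, by 0.51 ± 0.29 (SE) over uterus, with limma's adjusted p at 0.61. All 3 Gins2 probes had higher means in ICI than in uterus, by 0.33 to 0.60.

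Pcna, the sliding clamp, and thymidylate synthase (Tyms), which makes thymidine nucleotides, had different arrays at the low end. Pcna read 6.34 and 6.70 on ICI arrays, 7.01 and 6.36 on oviduct arrays and 5.93 and 6.10 on uterus arrays. Both uterus arrays were the lowest, and the difference was 0.51 (-0.12 to 1.14) for ICI minus uterus and 0.67 (0.04 to 1.31) for oviduct minus uterus, with limma adjusted p-values of 0.589 and 0.249. Tyms read 11.43 and 11.46 on ICI arrays, 10.25 and 11.08 on oviduct arrays and 10.81 and 11.15 on uterus arrays. At this brightest probe both ICI arrays lay above all others, and the oviduct and uterus arrays overlapped. For ICI minus oviduct the Tyms difference was 0.78 (0.08 to 1.48), with limma's adjusted p at 0.212, the lowest of the members in that comparison. Without oviduct replicate 2, so with the low array alone standing for the oviduct, that difference was 1.20. The ribonucleotide reductase subunits Rrm1 and Rrm2 make deoxynucleotides. Rrm1 read 9.87 and 9.83 on ICI arrays, 10.31 and 10.01 on oviduct arrays and 10.22 and 10.03 on uterus arrays. Both ICI arrays were the lowest at this brightest probe. A second Rrm1 probe read 9.08 and 8.74 on ICI arrays, 8.75 and 9.26 on oviduct arrays and 8.88 and 8.83 on uterus arrays. There the 3 groups overlapped. Rrm2 read 9.84 and 9.70 on ICI arrays, 10.18 and 9.58 on oviduct arrays and 9.80 and 9.85 on uterus arrays, and the 3 groups overlapped.

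The E cyclins Ccne1 and Ccne2, which open S phase, had the widest differences of the list at the brightest probe. Ccne1 read 7.89 and 7.21 on ICI arrays, 7.91 and 8.75 on oviduct arrays and 7.83 and 7.56 on uterus arrays. Both oviduct arrays were the highest, though replicate 1 exceeded the top ICI array by little. The difference was -0.78 (-1.60 to 0.04) for ICI minus oviduct and 0.64 (-0.18 to 1.46) for oviduct minus uterus, with limma adjusted p-values of 0.257 and 0.373. Ccne2 read 6.22 and 6.26 on ICI arrays, 5.73 and 6.66 on oviduct arrays and 4.90 and 5.92 on uterus arrays, and was detected on only 1 of the 2 uterus arrays. Both ICI arrays lay above both uterus arrays, by 0.83 (-0.15 to 1.80) in the mean, with limma's adjusted p at 0.578. The uterus pair alone had an SD of 0.72 (n = 2). Cdk1 read 10.64 and 10.65 on ICI arrays, 10.42 and 10.94 on oviduct arrays and 10.27 and 10.24 on uterus arrays. Both uterus arrays were the lowest, with differences of 0.39 (-0.13 to 0.91) for ICI minus uterus and 0.43 (-0.10 to 0.95) for oviduct minus uterus. A second Cdk1 probe was kept only through the oviduct pair and was not above background on either ICI array. It had -0.34 (-0.85 to 0.17) for ICI minus uterus and 0.21 (-0.30 to 0.72) for oviduct minus uterus. Cdk2 read 12.02 and 12.15 on ICI arrays, 12.30 and 11.87 on oviduct arrays and 12.14 and 12.20 on uterus arrays at its brightest probe, with overlapping groups.

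Among the phosphatases that release Cdk1 and the kinases that restrain it, no order of the groups was common to all 5 genes. Cdc25a read 8.96 and 9.23 on ICI arrays, 9.55 and 9.47 on oviduct arrays and 9.26 and 9.08 on uterus arrays. Chek1, the checkpoint kinase that responds to stalled forks, read 6.63 and 6.12 on ICI arrays, 7.39 and 6.64 on oviduct arrays and 6.65 and 6.55 on uterus arrays. Both genes had their oviduct arrays above both ICI arrays, with differences for ICI minus oviduct of -0.41 (-0.86 to 0.04) and -0.64 (-1.35 to 0.07) and limma adjusted p-values of 0.269 and 0.278. Cdc25b read 6.13 and 5.54 on ICI arrays, 5.52 and 5.10 on oviduct arrays and 6.23 and 5.38 on uterus arrays. Cdc25c read 7.89 and 7.75 on ICI arrays, 7.97 and 7.94 on oviduct arrays and 8.38 and 7.99 on uterus arrays. Cdc25b had both ICI arrays above both oviduct arrays, by 0.53 (-0.29 to 1.35), while its uterus arrays overlapped either pair. Cdc25c had its uterus arrays highest, with -0.36 (-0.84 to 0.11) for ICI minus uterus. Wee1, the dimmest of this set, read 5.27 and 5.45 on ICI arrays, 5.05 and 5.03 on oviduct arrays and 5.04 and 5.17 on uterus arrays, and was detected on 1 uterus array.

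Of the mitotic kinases, Plk1 and Aurka had their oviduct arrays below the normal uterus. Plk1 read 11.06 and 11.24 on ICI arrays, 10.37 and 10.99 on oviduct arrays and 11.07 and 11.24 on uterus arrays. The ICI and uterus pairs were nearly equal, with a difference of -0.00 (-0.59 to 0.58), and both oviduct arrays were the lowest, at -0.47 (-1.06 to 0.11) for oviduct minus uterus with limma's adjusted p at 0.355. Aurka read 11.44 and 11.36 on ICI arrays, 11.55 and 11.14 on oviduct arrays and 11.59 and 11.60 on uterus arrays, so both uterus arrays were the highest. Aurkb, of the chromosomal passenger complex, read 9.53 and 9.52 on ICI arrays, 9.005 and 9.34 on oviduct arrays and 9.14 and 9.23 on uterus arrays. Both ICI arrays lay above the other 4, by 0.34 (-0.12 to 0.79) over uterus. Its partner Birc5 (survivin) read 12.49 and 12.45 on ICI arrays, 12.07 and 12.64 on oviduct arrays and 12.52 and 12.42 on uterus arrays at the brightest probe, with overlapping groups. Tpx2, which activates Aurka on the spindle, read 8.33 and 8.399 on ICI arrays, 8.41 and 8.49 on oviduct arrays and 7.71 and 8.29 on uterus arrays. Both uterus arrays of Tpx2 were the lowest, the second by little.

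Spindle checkpoint genes included Mad2l1, the member closest to a call at an unadjusted p after Kif11 in ICI against uterus. Mad2l1 read 10.57 and 10.58 on ICI arrays, 10.18 and 10.47 on oviduct arrays and 9.82 and 10.27 on uterus arrays. Both ICI arrays were above the rest, and the difference from uterus was 0.53 (-0.00 to 1.06), with limma's adjusted p at 0.539. Its second probe differed by 0.51 ± 0.26 (SE) in the same direction. Bub1b read 10.45 and 10.42 on ICI arrays, 10.94 and 10.37 on oviduct arrays and 10.43 and 10.58 on uterus arrays. Ttk, the kinase that places checkpoint proteins on kinetochores, read 5.19 and 4.85 on ICI arrays, 5.43 and 5.30 on oviduct arrays and 5.21 and 5.09 on uterus arrays, and was detected on 1 ICI array. Bub1b overlapped between the groups, and Ttk had its oviduct arrays above the other 4.

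Cdc20, which starts anaphase, had 4 kept probes with lower means in oviduct than in uterus. At the brightest probe it read 12.52 and 12.36 on ICI arrays, 11.78 and 12.32 on oviduct arrays and 12.47 and 12.53 on uterus arrays. A second probe read 11.85 and 11.84 on ICI arrays, 11.31 and 11.47 on oviduct arrays and 11.98 and 11.85 on uterus arrays, and another read 11.35 and 11.33 on ICI arrays, 10.63 and 10.96 on oviduct arrays and 11.20 and 11.35 on uterus arrays. On all 3 probes both oviduct arrays lay below the 4 arrays from the uterus, ICI-treated or normal. For oviduct minus uterus the 4 probes differed by -0.45, -0.52, -0.48 and -0.80, with limma adjusted p-values of 0.344, 0.194, 0.254 and 0.531, so none passed. Ube2c, the ubiquitin-conjugating enzyme of the same step, read 5.45 and 5.82 on ICI arrays, 5.51 and 5.51 on oviduct arrays and 5.28 and 5.52 on uterus arrays, with overlapping groups.

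Among the chromosome and spindle proteins, Kif11 had the clearest difference between ICI and uterus. Kif11 is the motor that pushes spindle poles apart, and it read 8.29 and 8.52 on ICI arrays, 8.85 and 8.55 on oviduct arrays and 9.01 and 8.92 on uterus arrays. Both ICI arrays were the lowest and both uterus arrays the highest. The difference was -0.56 (-1.03 to -0.09) for ICI minus uterus at an unadjusted limma p of 0.0252 and a limma adjusted p of 0.535. For oviduct minus uterus it was -0.26 (-0.73 to 0.20), beside a median of -0.015 over all genes. When arrays were scaled on their medians it became 0.0047, beside 0.217 over all genes. Top2a, which untangles DNA before division, read 10.35 and 10.22 on ICI arrays, 10.12 and 10.21 on oviduct arrays and 10.36 and 10.31 on uterus arrays. Cenpa, the histone of centromeres, read 13.27 and 13.25 on ICI arrays, 12.81 and 13.23 on oviduct arrays and 13.19 and 13.21 on uterus arrays. At the brightest probe the interval of every comparison lay within 2-fold for Top2a and for Cenpa. At the second Top2a probe it did not, with -0.56 (-1.09 to -0.04) for ICI minus oviduct. The second Cenpa probe had -0.60 (-1.19 to -0.01) for oviduct minus uterus. Neither passed, with limma adjusted p-values of 0.222 and 0.260.

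**Figure D3:**
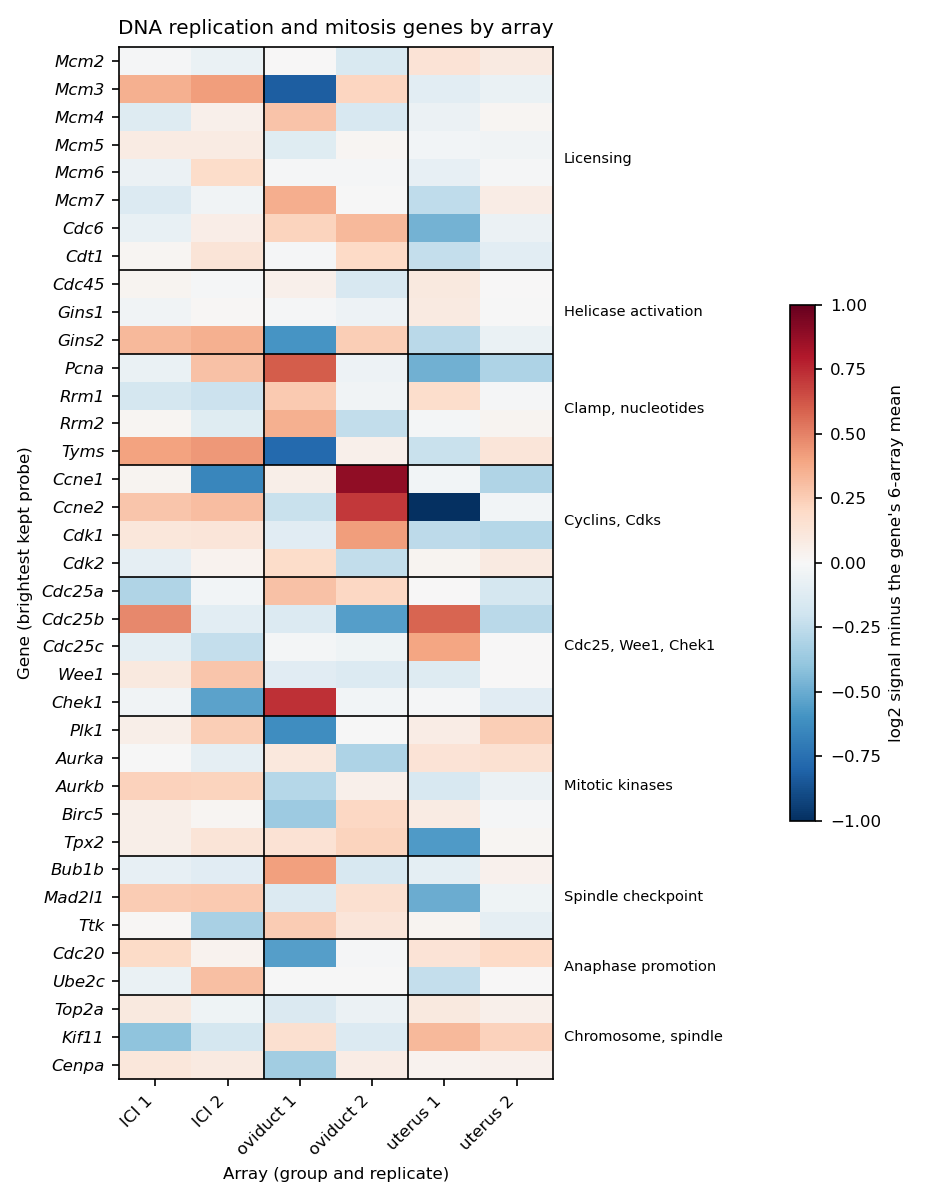
Each row is 1 of the 37 detected genes and each column 1 array, coloured by log2 signal minus the gene's mean over the 6 arrays, with values past 1 shown at the end colour and genes ordered by role. Oviduct replicate 1 is low for Mcm3 (8.06), Gins2 (8.26) and Tyms (10.25) and high for Chek1 (7.39), while its partner is not, and uterus replicate 1 is low for Ccne2 (4.90) and Tpx2 (7.71).

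How often the arrays of 2 groups stood apart can be set beside all genes. In ICI against uterus both ICI arrays were above both uterus arrays for 13 members and below for 5, where 19.5% of all genes were above and 32.4% below. The 13 make 35.1% of the members and the 5 make 13.5%, and no test was made of these shares, since all 37 genes are read from the same 4 arrays. In oviduct against uterus the members had 8 above and 8 below, where all genes had 24% and 26.3%. In ICI against oviduct they had 12 above and 10 below, where all genes had 23.8% and 29.6%. The role groups in the first comparison had medians of 0.11 for replication genes, of which 9 of 15 were above 0, and of -0.0041 for mitosis genes, of which 6 of 13 were. In oviduct minus uterus these medians were 0.0334 and -0.116, and in ICI minus oviduct 0.0222 and 0.124.

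Several members had more than 1 kept probe, and those probes did not always give the same answer. Of 19 such genes, probes differed in the sign of their difference for 10 in ICI against uterus, 5 in oviduct against uterus and 7 in ICI against oviduct. These counts take in probes not above background in a group, as in Mcm4, Mcm6 and Cdk1. The share over all genes with several probes was not counted. Cdk2 was among the genes whose probes differed widely in size. Its brightest probe had a difference of 0.00 (-0.49 to 0.49) for ICI minus oviduct, while its other 3 probes had 0.58, 1.12 and 1.32. The last of these read 8.99 and 9.53 on ICI arrays, 7.36 and 8.53 on oviduct arrays and 7.91 and 8.55 on uterus arrays. All 3 lay lowest on oviduct replicate 1, where the brightest probe was highest of the 6 arrays. Mcm4 had 2 dim probes that were not above background on either uterus array and were detected on both ICI arrays. One of them read 5.93 and 6.94 on ICI arrays, 4.62 and 5.58 on oviduct arrays and 4.51 and 4.79 on uterus arrays. With each uterus array set at the lowest signal among its detected probes, this probe's ICI mean was 2.57-fold higher, and the other's 1.996-fold. Both were kept only through the ICI pair, so the filter itself favoured a higher level in ICI. Limma's adjusted p was 0.535 for both, and the brightest Mcm4 probe differed by -0.02 (-0.52 to 0.48), so the gene's probes disagreed. The second Rrm2 probe had both oviduct arrays lowest, at 9.10 and 8.98 on ICI arrays, 8.64 and 8.51 on oviduct arrays and 8.78 and 9.16 on uterus arrays. The second Top2a probe had both oviduct arrays highest, at 6.15 and 6.08 on ICI arrays, 6.90 and 6.45 on oviduct arrays and 6.36 and 6.08 on uterus arrays. Their brightest probes showed neither order. Which transcripts each probe reads was not analysed here.

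The probes of a gene spread most on oviduct replicate 1. Signs disagreed most often in ICI against uterus, which uses no oviduct array. There the median absolute log2 difference of members was 0.15, against 0.22 in each of the other comparisons. For the 15 members with at least 2 probes detected on all 6 arrays, the SD between a gene's probes, each taken from its own 6-array mean, had a median of 0.17 and 0.17 on ICI arrays, 0.40 and 0.12 on oviduct arrays and 0.12 and 0.06 on uterus arrays. Oviduct replicate 1 had the largest SD of the 6 arrays for 12 of the 15 genes (80%). Over all 2908 such genes it had the largest for 44.1%, so the array stood apart beyond these members. Birc5 shows the size of it. A probe next to the brightest read 12.57 and 12.53 on ICI arrays, 11.09 and 12.45 on oviduct arrays and 12.17 and 12.25 on uterus arrays, so oviduct replicate 1 fell short of its partner by more than 2-fold on this probe and by much less on the brightest one. The fourth Cdc20 probe read 10.10 and 9.94 on ICI arrays, 7.06 and 9.17 on oviduct arrays and 8.58 and 9.26 on uterus arrays, with oviduct replicate 1 the lowest of the 6, and a difference of 1.90 ± 0.63 (SE) for ICI minus oviduct at a limma adjusted p of 0.175. The cause of the split was not tested.

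**Figure D4:**
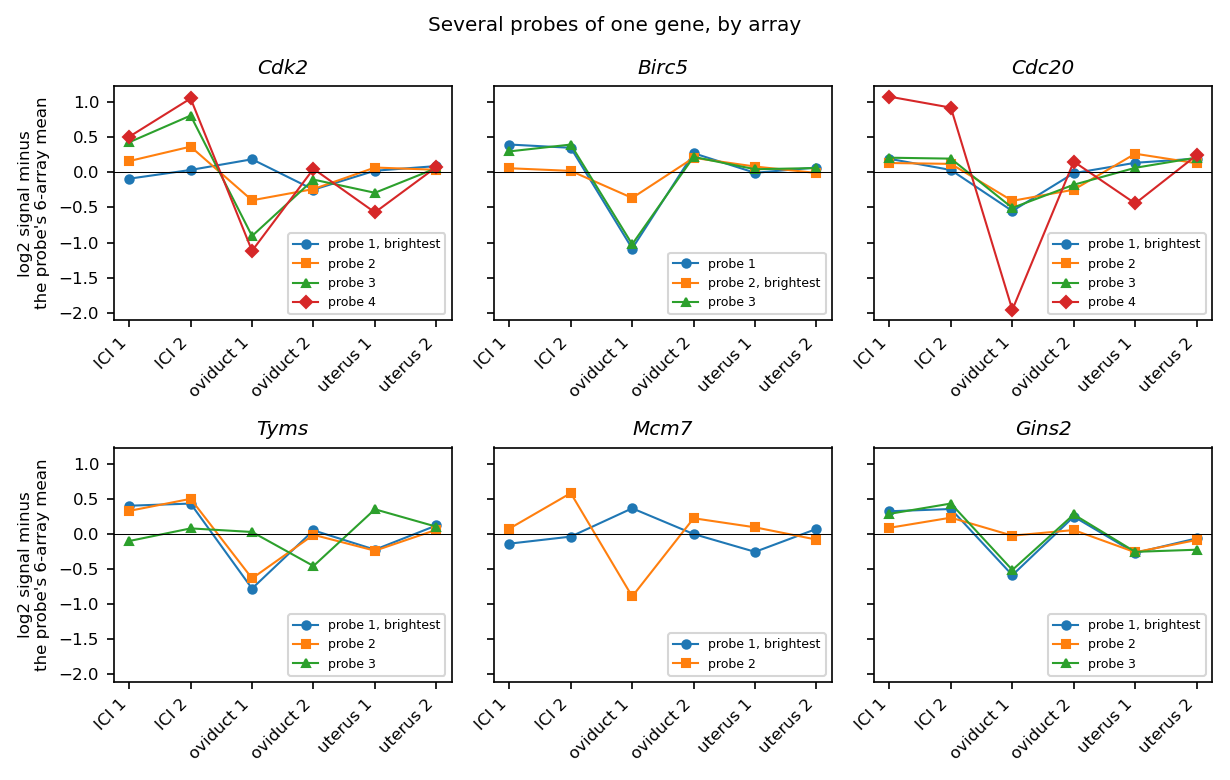
Lines join the values of each kept probe of Cdk2, Birc5, Cdc20, Tyms, Mcm7 and Gins2 over the 6 arrays, as log2 signal minus that probe's mean, for genes chosen after their values were seen. The probes of a gene part most on oviduct replicate 1, as in Cdc20, where the fourth probe read 7.06 there and 9.17 on oviduct replicate 2.

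Other genes of the same pathways, on lists of 43 replication, 45 mitosis, 19 regulator and 8 Cdk inhibitor genes, also had no calls in any comparison. Of 37 detected other replication genes, 27 were above 0 in oviduct minus uterus, with a median of 0.15, and 10 were above 0 in ICI minus oviduct, with a median of -0.25. Both rest on the oviduct arrays, and relative to each gene's mean the list's median was 0.30 on the first oviduct array and -0.04 on its partner. The thymidine kinase Tk1 read 10.52 and 10.61 on ICI arrays, 11.04 and 11.03 on oviduct arrays and 10.63 and 10.33 on uterus arrays, a difference of 0.55 (0.11 to 1.00) for oviduct minus uterus with limma's adjusted p at 0.194. Gins4, a partner of Gins1 and Gins2 in the GINS complex, read 11.67 and 11.64 on ICI arrays, 12.12 and 12.13 on oviduct arrays and 11.72 and 11.65 on uterus arrays, 0.44 (0.04 to 0.84) higher in oviduct than in uterus. In both genes the oviduct arrays were close to each other and stood above the rest, while Gins1 and Gins2 did not show this. Timeless and Gins3 also had both oviduct arrays highest.

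Of 38 detected other mitosis genes the median was 0.0401 for ICI minus uterus and 0.0082 for oviduct minus uterus. The condensin subunit Smc2, which compacts chromosomes, read 7.91 and 8.31 on ICI arrays, 7.62 and 7.02 on oviduct arrays and 6.61 and 7.18 on uterus arrays. Its partner Smc4 read 7.62 and 7.70 on ICI arrays, 7.11 and 7.03 on oviduct arrays and 6.97 and 7.14 on uterus arrays. Both genes had both ICI arrays above the other 4, by 1.22 (0.51 to 1.93) and 0.61 (0.19 to 1.02) over uterus, each at a limma adjusted p of 0.535. Ckap2, a spindle protein, had the same order, at 9.28 and 9.60 on ICI arrays, 8.06 and 8.82 on oviduct arrays and 8.48 and 8.81 on uterus arrays. Fzr1, which turns on the same ligase as Cdc20 after anaphase, read 11.88 and 11.82 on ICI arrays, 11.38 and 11.41 on oviduct arrays and 12.004 and 11.93 on uterus arrays. Its oviduct arrays were the lowest, as were those of Cdc20, at -0.57 (-0.97 to -0.17) for oviduct minus uterus with limma's adjusted p at 0.16.

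The regulators that act at the E2F and CHR elements were measured too. Mybl2, the B-Myb partner of MuvB, read 11.19 and 11.26 on ICI arrays, 10.83 and 10.89 on oviduct arrays and 11.39 and 11.33 on uterus arrays, a difference of -0.51 (-0.91 to -0.11) for oviduct minus uterus with limma's adjusted p at 0.193. Lin37, a MuvB subunit, read 6.05 and 5.68 on ICI arrays, 6.70 and 6.27 on oviduct arrays and 5.80 and 5.94 on uterus arrays. E2f4, a repressor E2F, read 7.94 and 7.83 on ICI arrays, 8.70 and 7.88 on oviduct arrays and 8.83 and 8.60 on uterus arrays. Mybl2 was thus lowest and Lin37 highest in the oviduct, and E2f4 differed by -0.84 (-1.52 to -0.15) for ICI minus uterus, with limma's adjusted p at 0.535. Of the Cdk inhibitors, Cdkn2d read 6.55 and 6.54 on ICI arrays, 6.15 and 5.86 on oviduct arrays and 6.74 and 6.34 on uterus arrays, and Cdkn3 had the same order. Cdkn1a (p21) read 7.47 and 7.87 on ICI arrays, 7.64 and 8.83 on oviduct arrays and 7.65 and 7.21 on uterus arrays, so its high value rested on oviduct replicate 2.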

How the data were processed

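Blastocyst RNA from 6 pools was read on Illumina mouse arrays. Per the file headers, the deposited table gives for each array a probe's mean bead intensity, not normalized, and a detection p-value; it also gives bead counts and bead errors, which were not used in tests. The authors' processed log2 values in the deposited matrix are centred per probe, with the method not given in the sources used here, and served as an alternative. Group means of the 3 groups followed the sample titles. Intensities were corrected and quantile normalized by the neqc function (limma 3.58.1, R 4.3.3) with an offset of 16 and detection p-values in place of control probes. Probes detected at p under 0.05 on both arrays of a group were kept. The fit used lmFit and eBayes on all 6 arrays with 3 residual degrees of freedom and 3.77 prior ones, two-sided, with Benjamini-Hochberg adjustment over 17677 probes and a threshold of 0.05. Each gene stands at its brightest kept probe; 34807 of 34885 probes with 1 symbol matched RefSeq of GRCm38.p6, and 10378 probes had no symbol and 18 several. Median bead counts were 43 to 44 per probe, but with 2 arrays in each group their number sets the precision.

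The code was tested on simulated data. The members, gene lists and promoter motifs were chosen with earlier results of these data known. Values by array are given for all 37 kept members; the naming rule asked for the 4 highest and 4 lowest differences among genes whose arrays did not overlap, the brightest and dimmest gene of each role, genes whose probes disagreed in sign, and the 4 lowest F-test p-values of each other list. Alternatives changed the background correction, normalization, filter, probe rule, block, array weights, groups in the fit and the arrays left out. Python 3.11.15 was used for promoters and figures.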

Additional observations from a re-analysis of the deposited data

How the results depend on the processing

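The members had 0 calls in each comparison under every alternative run, except when oviduct replicate 2 was left out. That fit leaves 1 oviduct array, and calls over all probes rose in it as well, as given below. The members called in it for ICI minus oviduct were Tyms (1.20), Mcm3 (1.21), Plk1 (0.78), Gins2 (0.93) and Chek1 (-1.01). The F-test likewise called members only in that fit. The remaining oviduct array, replicate 1, is then assumed to vary like the other groups. The lowest limma adjusted p of a member ranged over all alternatives from 0.125 to 1 for ICI against uterus, 0.0586 to 0.679 for oviduct against uterus and 0.016 to 0.647 for ICI against oviduct. Of the single-gene differences, 355 kept their direction and side of the threshold. The ones that crossed the threshold did so only without oviduct replicate 2. Kif11 in oviduct minus uterus changed sign, to 0.0047 with median scaling, where the median of all genes was 0.217.

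Member medians moved with scaling. For ICI minus uterus the median was -0.0686 with median scaling, -0.078 with the authors' values and 0.109 with the mean over a gene's probes, and 0.0026 to 0.0538 with an array left out. For oviduct minus uterus it was 0.236 with median scaling, where all genes stood at 0.217, so 0.0189 above them; it was 0.015 with detection at 0.01, -0.0207 with the mean over probes and -0.0174 to 0.0384 with an array left out. For ICI minus oviduct it was -0.271 with median scaling, where all genes stood at -0.305, so 0.0339 above them; it was -0.0766 with the authors' values, 0.0208 without background correction, 0.0543 with the mean over probes and -0.0357 to 0.0779 with an array left out.

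Over all probes, oviduct against uterus had 9 calls (1 higher, 8 lower). It had 38 with median scaling (19 higher, 19 lower), 0 with the authors' values, 1 without background correction, 1 without the filter, 0 with the replicate block, 0 with array weights, 0 with only the 2 groups, and 0 to 1516 with an array left out. ICI against oviduct had 60 (39 higher, 21 lower). It had 56 with median scaling (19 higher, 37 lower), 81 without background correction (44 higher, 37 lower), 85 with detection at 0.01, 20 with the authors' values (10 higher, 10 lower), 4 without the filter (2 higher, 2 lower), 5 with the replicate block, 11 with array weights, 0 with only the 2 groups, and 0 to 2800 with an array left out. The highest counts came without oviduct replicate 1 (1516) and without oviduct replicate 2 (2800). Same-numbered arrays correlated in their deviations by 0.0657 (ICI and oviduct), 0.125 (ICI and uterus) and 0.23 (oviduct and uterus). Whether same-numbered samples share more than a number was not tested. The replicate block lowered the calls over all probes, as given above, and no member was called with or without it.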

Other observations

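Oviduct replicate 1 had the largest SD between a gene's probes for 80% of the 15 members and for 43.9% of 2893 other genes, each with at least 2 probes detected on all 6 arrays. Over those other genes the median SD between probes was 0.132 and 0.161 on ICI arrays, 0.226 and 0.133 on oviduct arrays and 0.151 and 0.092 on uterus arrays.

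Over the 37 detected members the root mean square log2 difference was 0.226 between the ICI arrays, 0.482 between the oviduct arrays and 0.3 between the uterus arrays. Uterus replicate 2 was nearer to ICI replicate 1 (0.247) and ICI replicate 2 (0.258) than to uterus replicate 1 (0.3). Over all genes this was not so, with distances of 0.357 and 0.361 to the ICI arrays and 0.331 to uterus replicate 1.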
